A study of Mus musculus with 12 samples.

Results

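The cells described here are stromal cells of the mouse aorta from a single-cell RNA sequencing experiment, in 1 library from atherosclerotic mice (AS) and 1 library from atherosclerotic mice that received methazolamide (MTZ) from the start of the diet (MTZ-preventive). They were chosen by measured counts. A cell was kept with more than 200 genes, more than 1000 unique molecular identifiers (UMIs, each of which counts 1 captured RNA molecule), under 10% mitochondrial UMIs and no UMI of any of 7 genes of immune cells and adipocytes, namely Ptprc, Cd79a, Cd74, Cd3d, Lyz2, Adipoq and S100a8. Of the cells past the limits on genes, UMIs and mitochondrial UMIs, 702 of 2201 were kept in the AS library and 5357 of 16316 in the MTZ-preventive library. Together these are 6059 of the 73666 cells deposited for all 4 libraries. Within them, cells with at least 2 UMIs of Pecam1 and Cdh5 were called endothelial-marker cells, cells with at least 3 UMIs of Dcn and Col1a1 fibroblast-marker cells, and cells with at least 2 UMIs of Myh11 and Cnn1 smooth muscle-marker cells, and cells that met more than 1 of these limits were left out of the classes.

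By the methods and labels of the study, all groups were male C57BL/6J ApoE-/- mice, aged 8 weeks at the start, in groups of 18. Both groups compared here were fed for 24 weeks a high-fat diet with 1% cholesterol and 10% fat. The AS group received saline. The MTZ-preventive group received MTZ, an inhibitor of carbonic anhydrases that the labels write as methoxazolamide, at 25 mg/kg for the same 24 weeks. A further group was given MTZ for the last 12 weeks (MTZ-treated), and a group labelled Healthy was fed a normal diet with saline. For sequencing, 6 aortas were pooled per group into 1 library, so that variation from mouse to mouse is not seen in these data and differences between AS and MTZ-preventive were given without a test. Values in parentheses are 95% confidence limits, exact Poisson for a level, exact conditional binomial for a ratio and Clopper-Pearson for a share, and they cover counting error only.

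The wall of the aorta is built by smooth muscle cells, which contract and make elastic fibres, by endothelial cells, which line the lumen and the small vessels of the outer wall, and by fibroblasts, which fill the outer layer with collagen. In atherosclerosis these cells change their programmes. Smooth muscle cells can lose contractile proteins and make matrix, endothelial cells can show adhesion molecules to leukocytes, and fibroblasts can secrete chemokines. Metallothioneins, which are small proteins that bind zinc, carbonic anhydrases, which are zinc enzymes that turn carbon dioxide into bicarbonate, and heat shock proteins, which help other proteins to fold, are made by all of these cells in varying amounts.

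The genotype was looked at first through Apoe (ENSMUSG00000002985). Levels are in CPM, the count of a gene scaled to a total of 1e6 UMIs. In stromal cells Apoe had 18 UMIs in AS, or 13.4 (7.97 to 21.2) CPM, and 163 UMIs in MTZ-preventive, or 9.35 (7.97 to 10.9) CPM. In the MTZ-treated library it was at 12.3 (10.3 to 14.4) CPM and in the library labelled Healthy at 1057 (1036 to 1078) CPM, which goes against the genotype given for that group. That library therefore serves here only for levels set side by side. The stromal cells of AS held 1338956 UMIs and those of MTZ-preventive 17434356, and the median cell had 1358 and 2062 UMIs. For ratios a count of 0 was set at a floor of 3 UMIs, equal at these totals to 2.24 CPM in AS and 0.172 CPM in MTZ-preventive. Of the cell barcodes, 244 were shared by both libraries as deposited and 5 among the stromal cells.

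Both libraries kept nearly the same share of their cells, 31.9% and 32.8%, but lost the others through different genes. In the AS library 924 of 2201 cells had a UMI of S100a8, a neutrophil gene, against 503 of 16316 cells in the MTZ-preventive library. Cd74, a gene of antigen presenting cells, was found in 404 and 8567 of the same cells. In neither library does the absence of a UMI show that a cell is stromal, and RNA of the excluded cells that floats free in the suspension can be counted in the kept ones. A single UMI of such RNA can also remove a stromal cell. Cd74 alone removed 93 AS cells (4.23%) and 3634 MTZ-preventive cells (22.3%). S100a8 alone removed 379 (17.2%) and 92 (0.564%). The kept cells were thus selected differently in the 2 libraries, and the effect on the differences below was not tested.

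The classes carried the genes of the cells they are named for. The 11 listed fibroblast markers, none of them used by the rule, summed to 17349 and 24029 CPM in fibroblast-marker cells of the AS and MTZ-preventive libraries. They summed to 401 and 464 CPM in endothelial-marker cells and to 1124 and 1709.9 CPM in smooth muscle-marker cells. The 11 smooth muscle markers summed to 49124 and 60375 CPM in smooth muscle-marker cells and to at most 1811 CPM in the other classes. The 11 endothelial markers summed to 5858 and 5764 CPM in endothelial-marker cells and to at most 475 CPM in the other classes.

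Fibroblast-marker and smooth muscle-marker cells made up larger shares of the stromal cells in the MTZ-preventive library, and endothelial-marker cells a smaller share. As counted, endothelial-marker cells were 146 of 702, 20.8% (17.9 to 23.99), in the AS library and 694 of 5357, 12.96% (12.1 to 13.9), in the MTZ-preventive library. Fibroblast-marker cells were 206, 29.3% (26.0 to 32.9), and 2220, 41.4% (40.1 to 42.8). Smooth muscle-marker cells were 60, 8.55% (6.59 to 10.9), and 696, 12.99% (12.1 to 13.9). Cells with no class were 34.0% (30.5 to 37.7) and 18.3% (17.3 to 19.4), and cells that met more than 1 limit 7.26% (5.46 to 9.44) and 14.3% (13.4 to 15.2). Because a deeper cell passes a UMI limit more easily, every cell was also thinned to 1000 UMIs, after which the shares were 15.4% (12.8 to 18.3) and 8.96% (8.21 to 9.76) for endothelial-marker, 28.6% (25.3 to 32.1) and 40.5% (39.2 to 41.8) for fibroblast-marker and 6.41% (4.71 to 8.48) and 13.6% (12.7 to 14.5) for smooth muscle-marker cells. The order of the libraries was thus the same in each class after thinning. With the UMI limits of the classes set 2 higher, the order for endothelial-marker cells turned. At the limits themselves, 82 AS cells had exactly 2 UMIs of Pecam1 and Cdh5 and 138 had 1, against 341 and 729 in the MTZ-preventive library, 31 and 221 cells had exactly 3 UMIs of Dcn and Col1a1 and 40 and 303 had 2, and 26 and 260 cells had exactly 2 UMIs of Myh11 and Cnn1 and 88 and 655 had 1.

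**Figure D1:**
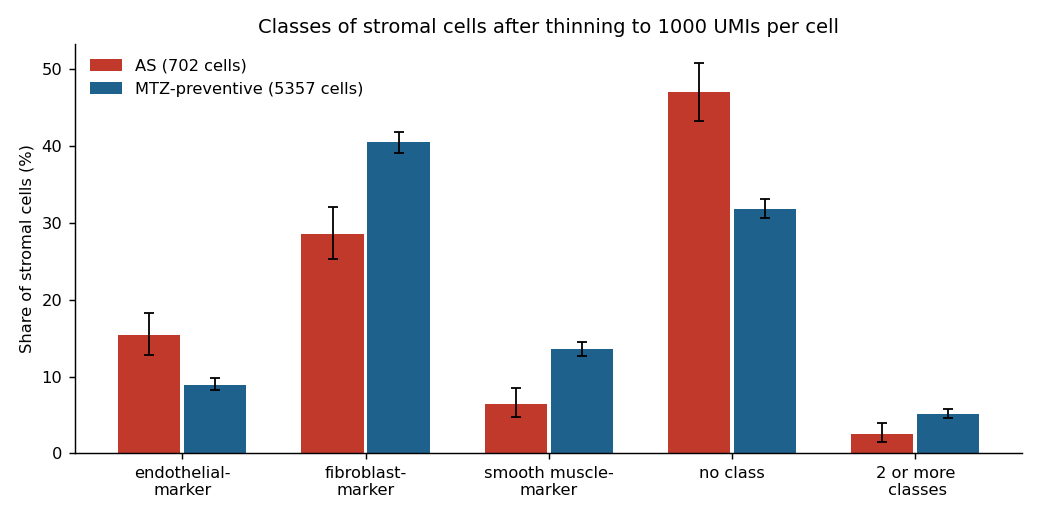
Share of stromal cells in each class (%) in the AS (red, 702 cells) and MTZ-preventive (blue, 5357 cells) libraries after each cell was thinned to 1000 UMIs, with Clopper-Pearson limits as error bars. Endothelial-marker cells were 15.4% against 8.96%, fibroblast-marker cells 28.6% against 40.5% and smooth muscle-marker cells 6.41% against 13.6%.

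Within a class the counts of all cells of a library were added up and scaled to CPM. A gene was compared with at least 100 CPM in either library (50 CPM over all stromal cells) and an average level worth at least 20 UMIs in the smaller pool. It was called higher or lower where the CPM of the MTZ-preventive library was at least 2-fold above or below that of AS. A call is a size, not a test. Since the classes come from the same 2 libraries, they share the free RNA of those libraries and are not independent of each other. A summed level cannot tell fewer cells with a gene from less RNA in each of them, which is why shares of thinned cells with a UMI are given beside the levels of the genes described at most length.

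Over all stromal cells 3045 genes were compared, of which 139 were higher (4.56%) and 58 were lower (1.9%) in the MTZ-preventive library, with a median log2 ratio of 0.07. The highest were largely genes of sympathetic neurons. Th, which makes the precursor of noradrenaline, had 0 UMIs in AS and stood at 195 (189 to 202) CPM in MTZ-preventive, and Dbh, which makes noradrenaline, had 0 UMIs and stood at 150.4 (145 to 156) CPM. With the AS count of 0 set at the floor of 3 UMIs, Th was 87.1-fold and Dbh 67.1-fold higher, ratios that depend on that floor. Pcsk1n, an inhibitor of prohormone processing, stood at 1.49 (0.181 to 5.40) and 408 (398 to 417) CPM. Mt3, a metallothionein of neurons, stood at 0.747 (0.0189 to 4.16) and 87.1 (82.8 to 91.6) CPM. All 7 compared neuron markers were higher, with log2 ratios from 1.52 to 8.09. Their median, 6.07, is the value of Dbh and so also depends on that floor. Of the 10 listed neuron markers, 4 had 0 UMIs in AS. These RNAs sat in few cells. With at least 5 UMIs over Th, Dbh, Prph, Pcsk1n and Npy there were 63 cells in the MTZ-preventive library, 37 of them in no class, and 1 cell in the AS library, and the 63 cells held 3218 of the 3401 Th UMIs. Without these cells 80 genes were higher and 52 lower, a setting chosen after seeing the data.

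Apart from Spp1 and Col2a1, which are described with the fibroblast-marker cells, the lowest genes over all stromal cells are known from blood cells and adipocytes. S100a9 and Retnlg, genes of neutrophils, stood at 178 (156 to 202) and 7.51 (6.28 to 8.92) CPM and at 67.96 (54.7 to 83.4) and 1.78 (1.21 to 2.52) CPM in the AS and MTZ-preventive libraries, and Hbb-bs, a hemoglobin chain of red blood cells, at 228 (203 to 255) and 10.9 (9.40 to 12.6) CPM. Cfd, a serine protease secreted by adipocytes, stood at 3912 (3807 to 4019) and 825 (812 to 839) CPM. In the excluded cells of the same libraries S100a9 was at 5621 and 159 CPM and Cfd at 16092 and 9173 CPM. The 10 adipocyte markers summed to 4713 and 1145 CPM in stromal cells, with 5 of 7 compared members lower, the 13 neutrophil markers to 975 and 281 CPM with 3 of 4 lower and 1 higher, and the 6 erythrocyte markers to 308 and 16.8 CPM. Their part in the other differences was not tested.

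Endothelial-marker cells of the MTZ-preventive library had less RNA of metallothioneins, of Car4 and of Lpl than those of the AS library, and more of several genes of vessel surface and matrix. Of 1665 genes compared, 58 were higher (3.48%) and 38 were lower (2.28%), with a median log2 ratio of 0.04. Mt1 (ENSMUSG00000031765) stood at 6731 (6406 to 7068) CPM in AS and 2424 (2358 to 2492) CPM in MTZ-preventive, a log2 ratio of −1.47 (−1.55 to −1.39). Mt2 stood at 1228 (1091 to 1376) and 438 (409.9 to 467) CPM, a log2 ratio of −1.49 (−1.68 to −1.29). After thinning to 1000 UMIs per cell, 84.2% (77.3 to 89.7) of AS and 60.7% (56.9 to 64.3) of MTZ-preventive cells had an Mt1 UMI, and the median cell had 4 and 1 UMIs, so that the difference lay across the class and not in a few cells. Of the 16 metallothionein and zinc transport genes listed, only Mt1 and Mt2 could be compared in each of the 3 classes.

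Mt1 and Mt2 lie next to each other on chromosome 8 and answer to zinc through metal response elements, short motifs near the start of the gene. The windows of both genes, from 250 bases before the annotated start to 30 bases after it (RefSeq, GRCm38.p6), are printed because both genes were lower in the same classes, with each match of the core TGCACNC or TGCGCNC on either strand in capitals. Mt1 is at chr8:94178839-94179118 and Mt2 at chr8:94172368-94172647, both on the + strand.
Mt1: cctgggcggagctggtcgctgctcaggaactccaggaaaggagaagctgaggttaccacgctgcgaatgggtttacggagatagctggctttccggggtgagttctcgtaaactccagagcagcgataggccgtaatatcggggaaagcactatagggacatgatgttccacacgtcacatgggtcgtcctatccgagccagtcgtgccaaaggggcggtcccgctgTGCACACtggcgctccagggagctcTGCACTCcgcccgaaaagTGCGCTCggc
Mt2: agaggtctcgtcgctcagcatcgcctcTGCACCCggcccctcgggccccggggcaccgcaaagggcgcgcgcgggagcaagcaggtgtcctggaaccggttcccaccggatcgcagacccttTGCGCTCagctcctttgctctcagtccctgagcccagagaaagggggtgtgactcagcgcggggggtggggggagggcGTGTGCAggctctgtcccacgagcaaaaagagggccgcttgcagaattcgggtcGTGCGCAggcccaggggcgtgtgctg
The Mt1 window held 3 matches and the Mt2 window 4. At least 1 match was found in 24.1% of 32841 promoter windows of the same length, and at least 3 in 1.73% of them. Among windows of the genes compared, at least 1 match was found in 35.0% for endothelial-marker, 32.6% for fibroblast-marker and 34.9% for smooth muscle-marker cells. Of the same list, Slc30a4 and Slc30a10 also held 3 matches each, and the other listed genes with a window held fewer.

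Car4 (ENSMUSG00000000805), a carbonic anhydrase on the outer face of capillary endothelium, was at 814 (704 to 937) CPM in AS and 296 (273 to 320.1) CPM in MTZ-preventive endothelial-marker cells, a log2 ratio of −1.46 (−1.70 to −1.22). It was found in 28.8% (21.6 to 36.8) of thinned AS cells and 18.4% (15.6 to 21.5) of thinned MTZ-preventive cells, and its log2 ratio over thinned cells, −0.83, was short of a call. Car3, which is abundant in adipocytes, was the other of 16 carbonic anhydrases that could be compared in this class, at 113 and 70.6 CPM and not called, and none could be compared in fibroblast-marker or smooth muscle-marker cells. Over all stromal cells, where 1.9% of compared genes were lower, Car4 and Car3 were the 2 compared. Both were lower there, with log2 ratios of −2.01 and −1.51. Lpl, the lipase that frees fatty acids from lipoproteins at the capillary wall, stood at 1002 (879 to 1137) and 362 (336 to 388) CPM. The other lipid genes of the same endothelium were closer, with Cd36, a fatty acid transporter, at 2033 and 1321 CPM, Gpihbp1, which holds Lpl at the endothelial surface, at 1875 and 1389.5 CPM and Fabp4, a fatty acid carrier, at 14998 and 16809 CPM. Of the 14 lipid handling genes compared, 1 was lower and 2 were higher, and of 7 capillary markers 1 was lower, Car4. The adipocyte markers summed to 5048 and 879 CPM in this class and Lpl itself was at 677 and 224 CPM in the excluded cells, and their part in these levels was not tested.

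Also lower in this class were Igfbp4, a binding protein of insulin-like growth factors, at 1917 (1745 to 2100.2) and 708 (672 to 745) CPM, and Ccl2, a chemokine that draws monocytes, at 217 (162 to 285) and 41.8 (33.5 to 51.5) CPM. Ccl2 rested on 52 AS UMIs, of which 5 cells held 63.5%, and with class limits 2 UMIs higher its log2 ratio was −0.64. Vegfa, a growth factor for endothelium, stood at 188 (137 to 251) and 57.1 (47.3 to 68.4) CPM and Ifi27l2a, an interferon-stimulated gene, at 1031 (907 to 1168) and 402 (375 to 430.1) CPM, the latter turning direction when the class limits were set 2 UMIs higher. Of the 12 interferon-stimulated genes compared 2 were lower and none was higher, with a median log2 ratio of −0.26.

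Among the genes that were higher, Bgn, a small proteoglycan of the matrix, stood at 276 (213 to 351) and 847 (808 to 887) CPM, Ltbp4, which binds latent TGF-beta, at 259 (198 to 332) and 693 (658 to 729.5) CPM, and Fbln2, a basement membrane protein, at 70.98 and 195 CPM. They were the 3 called members of 10 compared elastic fibre and matrix genes, none of which was lower. Ltbp4 was found in 20.5% (14.3 to 28.02) of thinned AS cells and 38.04% (34.4 to 41.8) of thinned MTZ-preventive cells. For Bgn the shares were 22.6% (16.1 to 30.3) and 32.1% (28.7 to 35.7), with overlapping limits. Procr, a receptor that binds the anticoagulant protein C, was at 75.2 (44.5 to 119) and 197 (178 to 217) CPM, and Edn1, which encodes the vasoconstrictor endothelin, at 113 (74.3 to 164) and 261 (239.7 to 284) CPM. They were the called members among 10 flow response and antithrombotic genes, a list with a median log2 ratio of 0.74 in which Klf4, a transcription factor induced by flow, stood at 514 and 916 CPM without a call. Plvap and Emcn, surface proteins of fenestrated and venous endothelium, stood at 409 and 846 CPM and at 234 and 491 CPM, and were the 2 called of 24 endothelial identity genes. Bgn and Ltbp4 stayed past 2-fold with every choice of cells and scaling tried, whereas Fbln2, Procr, Edn1, Plvap and Emcn each lost the call in at least 1, Edn1 with a log2 ratio down to 0.21. The thinned shares of Edn1, 10.96% (6.40 to 17.2) and 17.6% (14.8 to 20.6), had overlapping limits. Those of Procr, 4.79% (1.95 to 9.63) and 13.1% (10.7 to 15.9), did not overlap.

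Vcam1, to which leukocytes bind, stood at 117 (77.7 to 169) CPM in AS and 339.9 (315 to 366) CPM in MTZ-preventive endothelial-marker cells, and was the only called member of 9 adhesion and activation genes. The level came from few cells, since 5 of 694 cells held 52.5% of its MTZ-preventive UMIs and the thinned shares were 10.96% (6.40 to 17.2) and 10.1% (7.95 to 12.6). Without the cells that had a UMI of a lymphatic marker, 7 in AS and 92 in MTZ-preventive, it was at 111 and 205 CPM, a log2 ratio of 0.89, and was no longer called. Icam1, which also binds leukocytes, was at 355 and 433 CPM. The highest ratio of the class was that of Ccl21a, a chemokine of lymphatic endothelium whose symbol stands on several lines of the gene list, at 8.35 (1.01 to 30.2) and 581 (549 to 615) CPM, and its level is uncertain for that reason. Npy, a neuropeptide, had 0 UMIs in AS and 261 (239.7 to 284) CPM in MTZ-preventive, 94.5% of it in 5 cells.

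**Figure D2:**
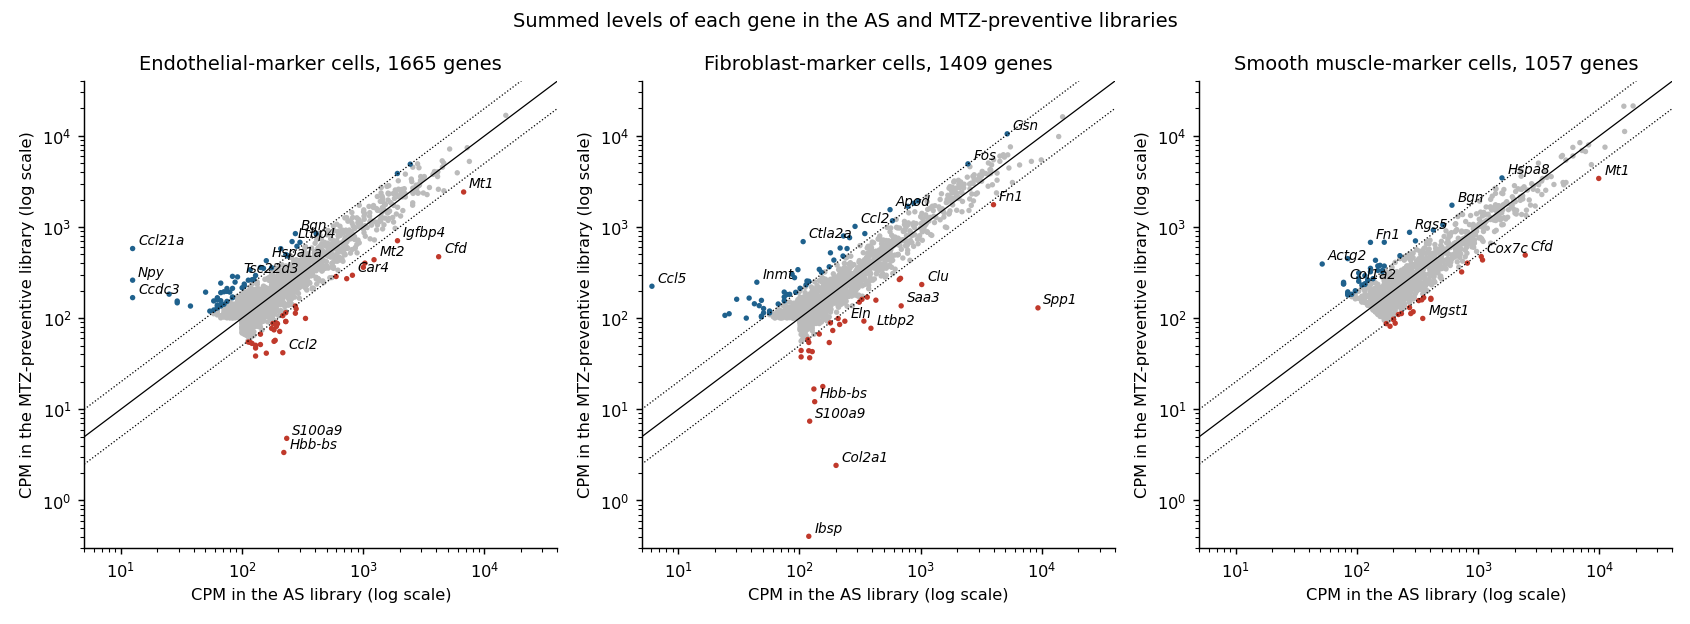
Level of each compared gene in the AS library (x axis) and the MTZ-preventive library (y axis), both in CPM on log scales, in 3 classes of stromal cells. Blue points are at least 2-fold higher and red points at least 2-fold lower in the MTZ-preventive library, the solid line marks equal levels and the dotted lines 2-fold, and a level under that of 3 UMIs is drawn at that of 3 UMIs. Mt1 lies below the dotted lines in endothelial-marker and smooth muscle-marker cells, and Spp1 is the farthest below them in fibroblast-marker cells among genes above 1000 CPM in AS.

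Fibroblast-marker cells of the MTZ-preventive library had more RNA of chemokines and of immediate early genes and less of Fn1, Clu and some elastic fibre genes. Of 1409 genes compared, 51 were higher (3.62%) and 32 were lower (2.27%), with a median log2 ratio of 0.09. Of the 14 chemokine and cytokine genes compared, 7 were higher and 1 was lower, with a median of 0.99. Ccl2 stood at 287 (242 to 339) CPM in AS and 1016 (993 to 1039) CPM in MTZ-preventive cells, a log2 ratio of 1.82 (1.58 to 2.07). Cxcl1, which draws neutrophils, stood at 231 (190.2 to 277) and 798 (778 to 819) CPM and was found in 12.6% (8.41 to 17.9) and 27.4% (25.5 to 29.3) of thinned cells. For Ccl2 the thinned shares, 13.6% (9.23 to 19.04) and 20.3% (18.6 to 22.004), lay closer than the levels, and without the deepest cells its log2 ratio was 0.88. Cxcl14, which is made by a subset of fibroblasts, stood at 86.99 (62.95 to 117) and 303 (291 to 316) CPM, but its AS UMIs came from 4 cells. Ccl5, a chemokine of T and NK cells, had 0 UMIs in AS and 224 (213 to 235) CPM in MTZ-preventive cells, of which 5 of 2220 cells held 91.8%. Leaving Ccl5 aside, 6 of 13 were higher. The lower member was Ccl19, at 362 and 170.2 CPM, named here after its value was seen.

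Nr4a1, an immediate early nuclear receptor, stood at 259 (216 to 308) and 764 (745 to 785) CPM, a log2 ratio of 1.56 (1.31 to 1.83), and was found in 16.99% (12.1 to 22.8) of thinned AS cells and 42.7% (40.6 to 44.7) of thinned MTZ-preventive cells. Fos, a subunit of the transcription factor AP-1, stood at 2452 (2316 to 2594) and 4934 (4884 to 4985) CPM, with 1 UMI in the median thinned AS cell and 4 UMIs in the median MTZ-preventive cell. Of 26 immediate early genes compared, 5 were higher and none was lower, and 23 had a ratio above 1, with a median of 0.55. Nr4a1 and Csrnp1 stayed past 2-fold with every choice of cells and scaling tried. The other called ones, Fos, Dusp1 and Maff, did not, with log2 ratios down to 0.97, 0.77 and 0.63. Socs3, which dampens cytokine signalling, stood at 346 and 847 CPM, Tnfaip6, a secreted anti-inflammatory protein, at 247 and 581 CPM, and Ptgs2, the inducible cyclooxygenase, at 50.6 and 114 CPM. Immediate early genes are also known to respond to the dissociation of tissue into cells. In endothelial-marker cells 2 of 26 of them were higher, with a median of 0.37, and in smooth muscle-marker cells none of 23, with a median of 0.13.

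Other genes higher in this class included Pi16 and Gsn, of the listed fibroblast markers. Pi16 stood at 785 (709 to 867) and 1687 (1657 to 1717) CPM, and Gsn, an actin severing protein of high level in these cells, at 5167 (4968 to 5371) and 10536 (10462 to 10609.9) CPM. They were the called members of the 11 fibroblast markers, of which 8 had a ratio above 1 and 3 below 1, among them Col1a2 and Col3a1. Pi16 was found in 32.5% (26.2 to 39.4) of thinned AS cells and 39.0% (37.0 to 41.1) of thinned MTZ-preventive cells, shares whose limits overlapped. Inmt, a methyltransferase, stood at 44.5 (27.9 to 67.4) and 248 (237 to 259.7) CPM and was found in 5.83% (3.05 to 9.95) and 19.5% (17.9 to 21.2) of thinned cells. Apod, a lipocalin, stood at 558 (494 to 628) and 1551 (1523 to 1579.9) CPM, although 63.04% of its AS UMIs lay in 5 cells. Igfbp5 and Igfbp3, of the insulin-like growth factor binding proteins, stood at 216 and 588 CPM and at 119 and 251 CPM. Ctla2a, a cysteine protease inhibitor, had the highest ratio of a gene with UMIs in both libraries, from 107 (80.3 to 140.2) to 692 (673 to 711) CPM, but 41.5% and 47.7% of its UMIs lay in 5 cells of each library.

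Fn1 (ENSMUSG00000026193), which encodes fibronectin, stood at 3983 (3809 to 4163) CPM in AS and 1759 (1729 to 1789.5) CPM in MTZ-preventive fibroblast-marker cells, a log2 ratio of −1.18 (−1.25 to −1.11). After thinning, 69.4% (62.6 to 75.6) of AS cells and 37.4% (35.4 to 39.4) of MTZ-preventive cells had an Fn1 UMI, with 2 and 0 UMIs in the median cell. Clu, the chaperone clusterin, stood at 1019.6 (932 to 1113) and 234 (223 to 245) CPM and was found in 30.6% (24.4 to 37.4) and 13.1% (11.7 to 14.5) of thinned cells. Ltbp2, a protein of elastic microfibrils, was at 388 (335 to 447) and 77.5 (71.3 to 84.1) CPM, Thbs1, a matrix glycoprotein, at 339.9 (290.4 to 395) and 92.8 (86.04 to 100.04) CPM and Eln, elastin, at 237 (196 to 284) and 92.7 (85.9 to 99.9) CPM. The matrix list as a whole was mixed, since 4 of 28 compared members were lower and 2 were higher, among them Mfap4 at 24.3 and 107 CPM, with a median of −0.05. Of 12 listed collagens compared, which leave out Col2a1, 1 was lower, Col8a1 at 176 and 54.03 CPM, and none was higher, but 11 had a ratio below 1, with a median of −0.52. Col1a2 was at 2612 and 1727 CPM and Col3a1 at 3597 and 2804 CPM, neither of them called.

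Spp1 (ENSMUSG00000029304), which encodes osteopontin, had the largest difference in CPM of the class, at 9267 (9001 to 9539) CPM in AS and 129.8 (122 to 138) CPM in MTZ-preventive. Nearly all of it came from few cells. In the AS library 5 of 206 fibroblast-marker cells had at least 10 Spp1 UMIs and held 99.3% of the Spp1 UMIs, and in the MTZ-preventive library 10 of 2220 cells held 87.1%. The 5 AS cells also held all 59 UMIs of Ibsp, a protein of bone matrix that had 0 UMIs in MTZ-preventive, and 93 of the 99 UMIs of Col2a1, the collagen of cartilage. Of these 5 cells, only 2 had Ibsp and 4 had Col2a1. With the cells of at least 10 Spp1 UMIs left out, a setting chosen after seeing the data, Spp1 stood at 70.5 and 16.8 CPM, and 44 genes were higher and 30 lower. Fn1 was then at 3668 and 1688 CPM, Clu at 810.2 and 219.98 CPM, Ltbp2 at 350.1 and 69.97 CPM, Thbs1 at 317 and 92.7 CPM and Eln at 258 and 92.4 CPM, all still at least 2-fold lower. Gsn, Pi16 and Igfbp3, which were higher, then stood just short of 2-fold.

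Acute phase genes split in this class. Saa3, a serum amyloid, stood at 689.8 (619 to 767) and 136 (128 to 145) CPM and Lcn2, a lipocalin that binds iron carriers of bacteria, at 666 (596 to 741) and 265 (254 to 277) CPM. Without the cells rich in Spp1, Lcn2 stood at 434 and 264 CPM and was not called. In AS, 5 cells held 94.7% of the Saa3 UMIs and 62.6% of the Lcn2 UMIs. Without cells that had a UMI of a mesothelial marker, 84 in AS and 797 in MTZ-preventive, Saa3 was at 60.4 and 84.3 CPM and its direction turned, whereas Fn1 was at 4453 and 1501 CPM. Of the 10 acute phase genes compared, 3 were lower and 1 was higher. Mt1 and Mt2 were not called in this class, at 13739.9 (13415 to 14071) and 9837 (9766 to 9909) CPM and at 2211 (2082 to 2346) and 1909.9 (1879 to 1942) CPM, and 91.7% (87.1 to 95.1) and 88.6% (87.2 to 89.9) of thinned cells had an Mt1 UMI. Neutrophil markers summed to 902 and 363 CPM, and adipocyte markers to 918 and 796 CPM.

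Smooth muscle-marker cells of the MTZ-preventive library had more RNA of heat shock proteins, of matrix genes and of Actg2, and less of metallothioneins. Of 1057 genes compared, 39 were higher (3.69%) and 22 were lower (2.08%), with a median log2 ratio of −0.02. This class had the least support, with 60 AS cells and 154771 UMIs. The floor of 3 UMIs stood at 19.4 CPM, and a gene with 0 UMIs is not shown to be absent. With TMM factors, which centre the bulk of genes, all its ratios moved by 0.13 on the log2 scale, and 65 genes were higher and 12 lower.

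The contractile proteins that define these cells mostly differed by less than 2-fold. Acta2, smooth muscle actin, was at 15894 (15272 to 16535) and 21169.8 (20982 to 21359) CPM and Tagln, which binds actin, at 18944 (18264 to 19642) and 21327 (21138 to 21516) CPM, and neither was called. Of 22 contractile genes compared 3 were higher and none was lower, with a median of 0.24. The 3 were Actg2, the actin of visceral smooth muscle, at 51.7 (22.3 to 102) and 393 (368 to 419) CPM, Rgs5, a regulator of G proteins that is also a pericyte gene, at 271 (196 to 367) and 875 (837 to 914) CPM, and Synpo2, an actin bundling protein, at 83.995 (44.7 to 144) and 186 (168 to 204) CPM. Actg2 rested on 8 AS UMIs and was found in 5% (1.04 to 13.9) and 20.1% (17.2 to 23.3) of thinned cells. Of the 42 AS UMIs of Rgs5, 97.6% lay in 5 cells.

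Several matrix genes were higher in this class. Fn1 stood at 129 (78.9 to 199.6) CPM in AS and 679 (646 to 714) CPM in MTZ-preventive cells, a log2 ratio of 2.39 (1.76 to 3.11), and Bgn at 607 (491 to 743) and 1736 (1683 to 1791) CPM. Fn1 was found in 13.3% (5.94 to 24.6) and 26.9% (23.6 to 30.3) of thinned cells and Bgn in 33.3% (21.7 to 46.7) and 52.7% (48.9 to 56.5). Of 10 elastic fibre and matrix genes 5 were higher and none was lower, with a median of 0.99, and of 5 collagens 3 were higher and none was lower, with a median of 1.04, although Col3a1, 1 of the 3, turned with a looser cell filter. Col1a2, a chain of fibrillar collagen, stood at 77.5 (40.1 to 135) and 247 (228 to 269) CPM from 12 AS UMIs, and Col18a1, a collagen of basement membranes, at 168 (109.7 to 246) and 373 (348 to 399) CPM. These calls depended on the choice of cells. With a looser cell filter the log2 ratio was 0.35 for Fn1, 0.45 for Col1a2 and 0.38 for Ltbp4, and over thinned cells it was 0.87 for Bgn, 0.92 for Ogn and 0.42 for Col18a1, all short of a call. Eln, elastin, was at 246 and 264 CPM. The fibroblast markers summed to 1124 and 1709.9 CPM in smooth muscle-marker cells, with 2 of 3 compared members higher, and their part in the matrix genes was not tested. Without cells that had a UMI of a pericyte marker, 22 in AS and 185 in MTZ-preventive, Fn1 was at 68.3 and 528 CPM and Bgn at 409.5 and 1478 CPM.

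Hspa1a and Hspa1b, inducible heat shock proteins of the 70 kDa family, stood at 168 (109.7 to 246) and 681 (648 to 716) CPM and at 83.995 (44.7 to 144) and 450.01 (423 to 478) CPM in smooth muscle-marker cells. Hspa8, their constitutive relative, stood at 1570.1 (1379 to 1780.4) and 3459 (3383 to 3536) CPM. Of 13 heat shock genes compared 4 were higher and none was lower, with a median of 0.59. In thinned cells Hspa1a was found in 10% (3.76 to 20.5) of AS and 37.2% (33.6 to 40.9) of MTZ-preventive cells. In endothelial-marker cells Hspa1a stood at 159 (112 to 218) and 427 (399.7 to 456) CPM and 2 of 12 heat shock genes were higher. In fibroblast-marker cells Hspa1a was at 134 and 128 CPM, and 1 of 14 was higher, Hspb1, a small heat shock protein, at 951 and 1935 CPM, which was not called with several other choices of cells. The higher levels of Hspa1a and Hspa1b in smooth muscle-marker cells stayed past 2-fold with every choice of cells and scaling tried, whereas Hspa8 did not without pericyte-marker cells. Heat shock genes, like immediate early genes, are known to respond to tissue dissociation.

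Hspa1a and Hspa1b are near-identical copies, and counting may not tell all their reads apart, so that each level alone is uncertain. Their promoter windows of 280 bases (RefSeq, GRCm38.p6) are printed because they show how alike the copies are around the annotated start, with 276 of 280 bases identical. The windows do not cover the rest of the transcribed sequence. Hspa1a is at chr17:34972127-34972406 and Hspa1b at chr17:34959209-34959488, both on the − strand, and capitals mark the match of GAANNTTC, a core of the heat shock element that reads the same on both strands.
Hspa1a: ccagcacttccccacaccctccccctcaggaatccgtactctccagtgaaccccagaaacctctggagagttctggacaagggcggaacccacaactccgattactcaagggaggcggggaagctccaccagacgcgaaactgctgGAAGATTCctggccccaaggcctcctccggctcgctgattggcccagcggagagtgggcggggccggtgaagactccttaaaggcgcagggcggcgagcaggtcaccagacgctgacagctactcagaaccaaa
Hspa1b: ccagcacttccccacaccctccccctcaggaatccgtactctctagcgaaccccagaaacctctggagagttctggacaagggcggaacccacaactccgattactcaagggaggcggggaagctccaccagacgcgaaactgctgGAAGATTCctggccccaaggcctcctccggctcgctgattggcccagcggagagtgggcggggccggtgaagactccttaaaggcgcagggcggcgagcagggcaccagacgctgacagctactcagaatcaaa
Each window held 1 match, as did 7.38% of 32841 windows of the same length with at least 1.

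Mt1 stood at 9866 (9377 to 10374) and 3414 (3338 to 3490.1) CPM in smooth muscle-marker cells, a log2 ratio of −1.53 (−1.61 to −1.45), and Mt2 at 1085 (928 to 1263) and 435 (409 to 463) CPM. The shares of thinned cells with an Mt1 UMI, 78.3% (65.8 to 87.9) and 72.8% (69.4 to 76.1), overlapped, and 5 AS cells held 46.1% of its UMIs. Without pericyte-marker cells Mt1 was at 7008 and 3779 CPM, a log2 ratio of −0.89, and was no longer called. Of 32 nuclear genes of the respiratory complexes compared 2 were lower and none was higher, and 30 had a ratio below 1, with a median of −0.45. The called ones were Cox7c, a subunit of cytochrome c oxidase, at 1059.6 (904 to 1235) and 474 (447 to 503) CPM, and Atp5k, a subunit of ATP synthase, at 187 and 81.5 CPM. With looser cell filters or no limit on S100a8 and Lyz2 neither was called. The list had medians of −0.40 in endothelial-marker and −0.24 in fibroblast-marker cells with no call. The median share of mitochondrial UMIs per cell was 2.65% in AS and 4.09% in MTZ-preventive smooth muscle-marker cells.

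**Figure D3:**
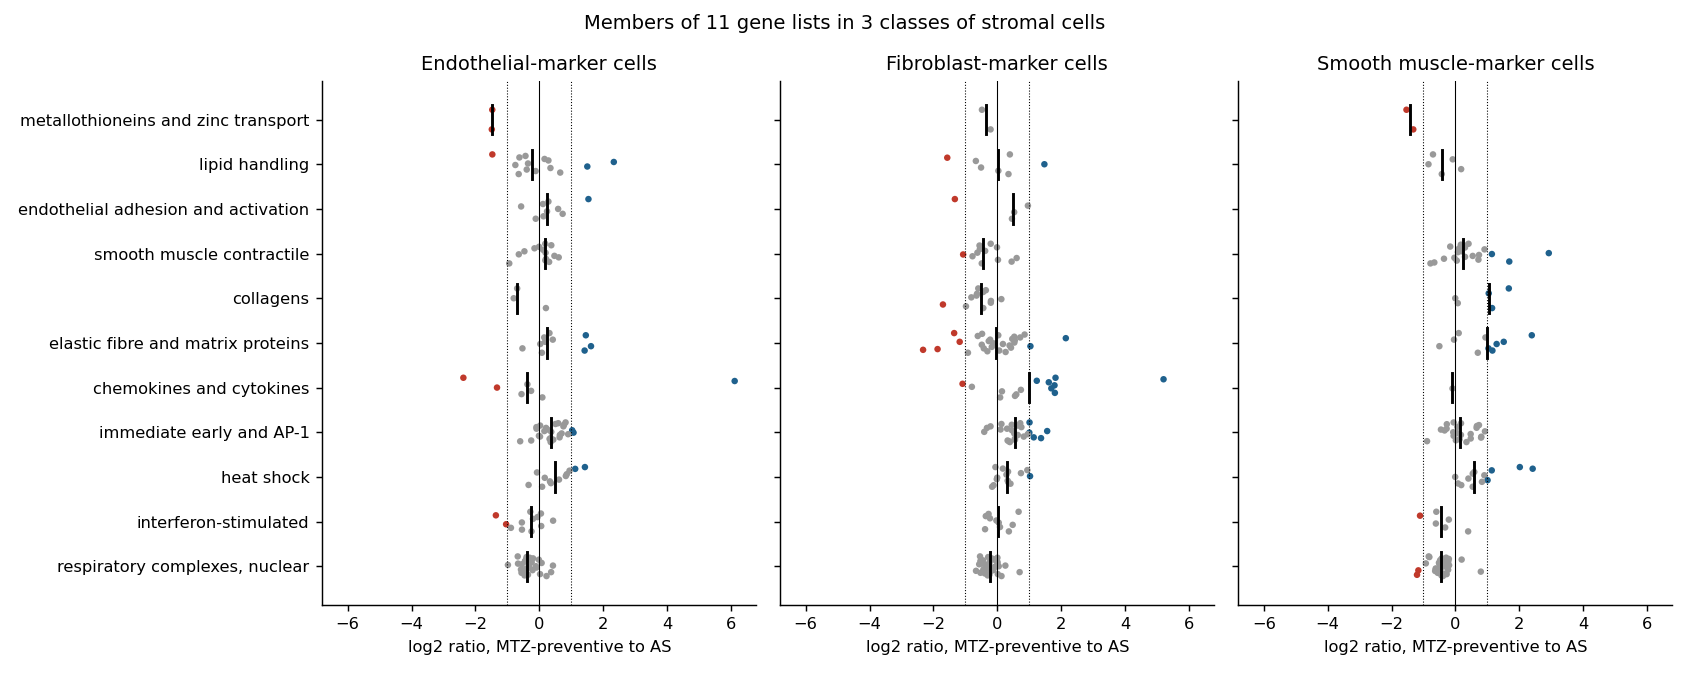
Log2 ratio of MTZ-preventive to AS for each compared member of 11 gene lists (rows) in 3 classes of stromal cells (panels). Blue and red points are at least 2-fold higher or lower, grey points are in between, black bars are list medians and dotted lines mark 2-fold. Metallothioneins lie at the left in endothelial-marker and smooth muscle-marker cells, and 7 chemokines lie past 2-fold at the right in fibroblast-marker cells.

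Between the classes, a single gene of the 836 compared in all 3 was higher in every one, Pcbp1, an RNA binding protein, at 150.3 and 352 CPM in endothelial-marker, 119 and 254 CPM in fibroblast-marker and 116 and 293 CPM in smooth muscle-marker cells. With other settings its log2 ratio went down to 0.88 in fibroblast-marker and 0.91 in smooth muscle-marker cells, short of a call. In endothelial-marker cells its lowest value was 1.04. None was lower in every class. Among the genes lower in both endothelial-marker and smooth muscle-marker cells were Mt1, Mt2, Cfd and Ifi27l2a. Ribosomal protein genes, which make up a large part of the RNA, were called 1 of 79 times in fibroblast-marker and in smooth muscle-marker cells and not in endothelial-marker cells, with medians of 0.20, 0.27 and 0.06 in the order endothelial-marker, fibroblast-marker and smooth muscle-marker cells.

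Nearest to the 2-fold limit, Pgam1 was just inside at 70.98 and 142 CPM and Gpi1 just outside at 121 and 242 CPM in endothelial-marker cells, and on the lower side Errfi1 was just inside at 229.7 and 115 CPM and Pin4 just outside at 113 and 56.7 CPM. In fibroblast-marker cells Dusp1 was just inside at 585 and 1172 CPM and Cdkn1c just outside at 101 and 201 CPM. On the lower side Tgfb1 was just inside at 117 and 58.3 CPM and Polr2l just outside at 273 and 137 CPM. In smooth muscle-marker cells Dmpk was just inside at 136 and 271 CPM and Gas5 just outside at 226 and 450.0 CPM, and on the lower side Srsf10 was just inside at 219.7 and 109.8 CPM and Acadm just outside at 181 and 94.1 CPM.

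The other 2 libraries give a background for these levels. In endothelial-marker cells Mt1 was at 344 CPM in the library labelled Healthy and 1031 CPM in MTZ-treated, both below the MTZ-preventive level, and AS was the highest of the 4. The order was likewise the same for Mt1 in fibroblast-marker cells, at 1893 and 2394 CPM, and in smooth muscle-marker cells, at 1510.3 and 1681 CPM. Car4 in endothelial-marker cells was at 259.8 CPM in the library labelled Healthy and 95.8 CPM in MTZ-treated. For Fn1 in fibroblast-marker cells these libraries had 1849 and 3327 CPM, so that the MTZ-treated level lay nearer to AS. Ccl2 in fibroblast-marker cells was at 154 and 449.9 CPM, both under the MTZ-preventive level, and Nr4a1 at 394 and 318 CPM. Hspa1a in smooth muscle-marker cells was at 872 and 412 CPM, both above AS.

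**Figure D4:**
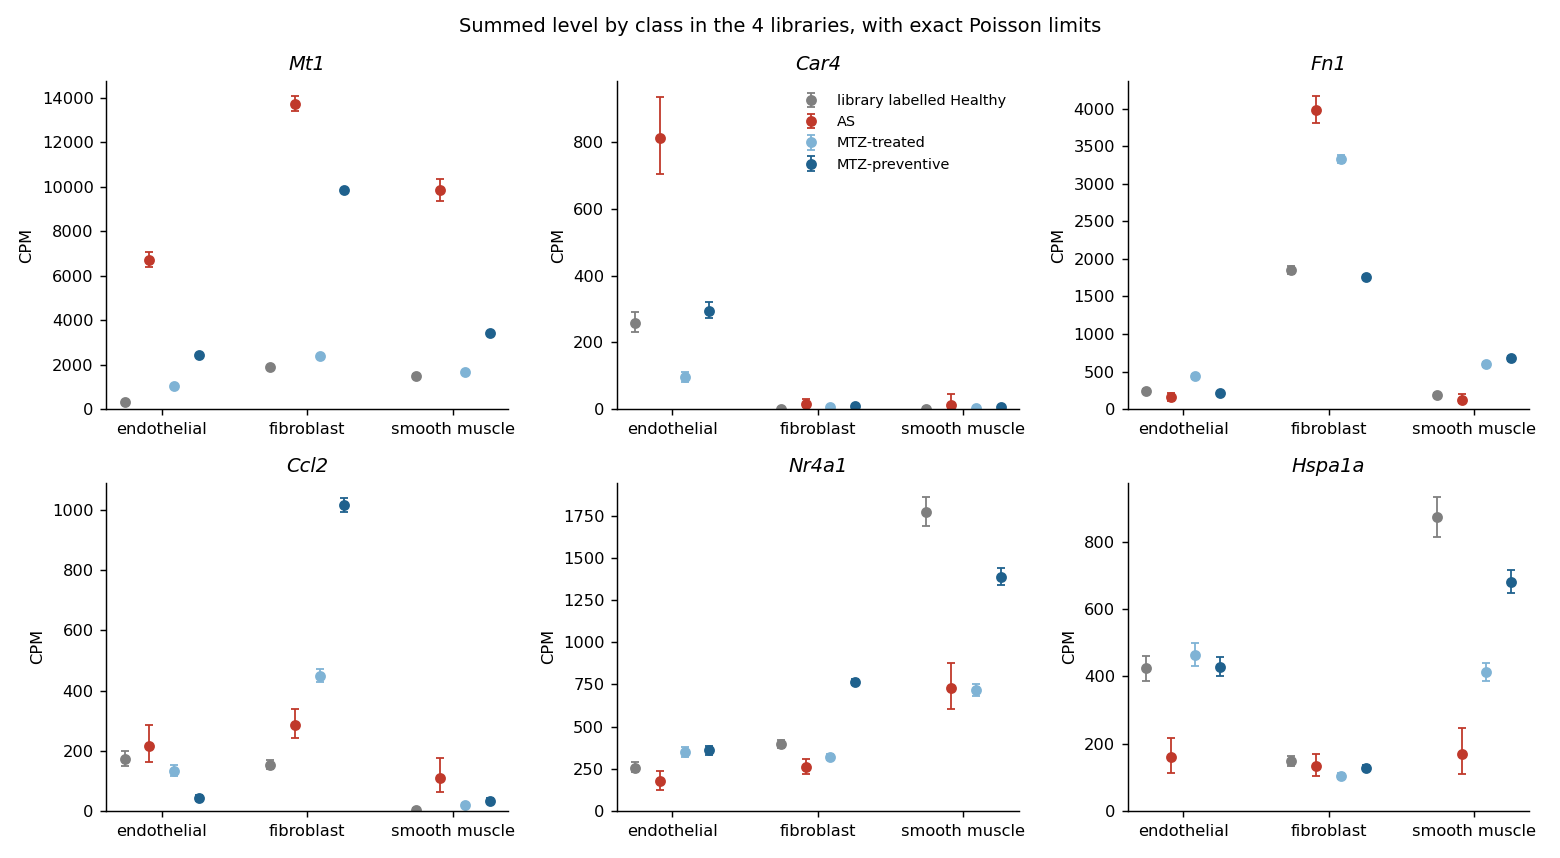
Summed level (CPM, linear axis from 0) of Mt1, Car4, Fn1, Ccl2, Nr4a1 and Hspa1a in 3 classes of stromal cells of the 4 libraries, with exact Poisson limits as error bars that cover counting error only. AS has the highest Mt1 of the 4 libraries in each class, and MTZ-preventive has the highest Ccl2 in fibroblast-marker cells, at 1016 CPM.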

How the data were processed

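Single-cell 5' libraries were counted by the authors with Cell Ranger (5.0.0 per the file headers) on mm10, and each deposited matrix gives raw UMI counts by gene and barcode. The contigs of receptor libraries were not used here. Counts were read with Python 3.11.15 (numpy 2.4.6, scipy 1.17.1, pandas 2.3.3). Symbols on more than 1 line (38) were summed. Immunoglobulin, T cell receptor and mitochondrial genes, unnamed models and the genes of the rule were not compared. No doublet caller was run, and cells of more than 1 class were left out of the classes. TMM factors came from edgeR 4.0.16 in R 4.3.3. The members, the 32 pathway and 21 cell type lists and the rules were chosen with earlier results of these data known. Genes named in the text were drawn from several sets, and not every member of a set is named. The sets were, among called genes, the 8 highest and 8 lowest of each class (6 and 6 over all stromal cells), up to 4 members per list with the largest ratio, genes named in the study's text and a few chosen after their values were seen (Fn1, Ccl19, Col1a2, Col3a1 and Hspa1a in fibroblast-marker, Fabp4, Icam1 and Klf4 in endothelial-marker and Eln and Thbs1 in smooth muscle-marker cells, and the genes beside the 2-fold limit). The comparison was also run on simulated counts at the real totals. These held counting error only, so the run cannot speak to variation between cells, mice or libraries.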

Additional observations from a re-analysis of the deposited data

Results flagged for a closer look

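For 5 genes the 2-fold calls went in opposite directions in a pair of classes of the same libraries. In the same direction, 16 genes were called higher and 8 lower in at least 2 classes, and 836 genes were compared in all 3. Whether the differences between classes exceed the variation between mice was not tested, since each group has 1 library. Fn1 had a log2 ratio of MTZ-preventive to AS of −1.18 in fibroblast-marker and 2.39 in smooth muscle-marker cells, and Thbs1 of −1.87 and 1.04 in the same classes. Vcam1 had a log2 ratio of 1.54 in endothelial-marker and −1.33 in fibroblast-marker cells. Hmox1, the enzyme that breaks down heme, had −1.30 in endothelial-marker and 1.15 in fibroblast-marker cells, and Ccl2 had −2.38 and 1.82. The thinned shares of Fn1, 69.4% (62.6 to 75.6) and 37.4% (35.4 to 39.4) in fibroblast-marker and 13.3% (5.94 to 24.6) and 26.9% (23.6 to 30.3) in smooth muscle-marker cells of AS and MTZ-preventive, had the same opposite order. Those of Ccl2 did too, at 10.3% (5.87 to 16.4) and 3.03% (1.88 to 4.59) in endothelial-marker cells. In fibroblast-marker cells they were 13.6% (9.23 to 19.04) and 20.3% (18.6 to 22.004). However, the limits overlapped for Fn1 in smooth muscle-marker cells and for Ccl2 in fibroblast-marker cells. The shares of Vcam1 in endothelial-marker cells, 10.96% (6.40 to 17.2) and 10.1% (7.95 to 12.6), overlapped as well. In smooth muscle-marker cells of AS, Fn1 and Thbs1 stood at 129 and 116 CPM in a pool of only 154771 UMIs. With other choices of cells each of the 5 genes lost the call in at least 1 class, with no change of sign. The log2 ratio nearest to 0 was 0.35 for Fn1 and 0.75 for Thbs1 in smooth muscle-marker cells, 0.54 for Vcam1 in endothelial-marker cells, −0.85 and 0.65 for Hmox1 and −0.64 and 0.88 for Ccl2 in endothelial-marker and fibroblast-marker cells, whereas Fn1, Thbs1 and Vcam1 stayed past 2-fold in fibroblast-marker cells.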

How the results depend on the processing

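The settings that leave out Spp1 or neuron cells were chosen after seeing the data. For single genes, the settings were tried on the called genes of the sets from which the named genes were drawn. Not all of these genes appear in the text. Over all these settings, 1751 of 2304 values stayed within counting error of the value with the main settings, 541 moved beyond it and 12 changed sign. The settings differed widely. With TMM factors 202 of 205 values stayed, and with totals without mitochondrial, ribosomal and hemoglobin genes 204 of 205. After thinning only 108 of 205 stayed, as the mean over cells 116 of 205, and without mesothelial cells 20 of 53. The cause of these moves was not tested. Counts of called genes within 1.5-fold of the reported ones are not repeated.

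At a limit of 3-fold, 69 of 3045 genes were higher and 21 lower over all stromal cells. Of 1665 in endothelial-marker cells 12 were higher and 9 lower, of 1409 in fibroblast-marker cells 14 and 13, and of 1057 in smooth muscle-marker cells 10 and 2. With other settings, here and above, the number of genes compared can differ. Counts of called genes from them cannot be read as shares. With no CPM minimum, 299 were higher and 114 lower over all stromal cells, and 83 and 55 in fibroblast-marker cells, where more genes were compared. After thinning, 26 were higher and 23 lower in endothelial-marker cells, 52 lower in fibroblast-marker cells and 7 higher and 8 lower in smooth muscle-marker cells, where fewer were compared. With class limits 2 UMIs higher, 38 were higher and 25 lower in endothelial-marker cells. Without a limit on S100a8 and Lyz2, 98 were lower over all stromal cells, and 72 were higher and 46 lower in smooth muscle-marker cells. With a looser cell filter 64 were higher and 46 lower in smooth muscle-marker cells, and with TMM factors 65 and 12. With the mean over cells 90 were higher over all stromal cells, and without neuron cells 80. With the class mix of AS 37 were lower there. In fibroblast-marker cells 65 were lower without the deepest cells and 53 without mesothelial cells, and in smooth muscle-marker cells 13 without pericytes.

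The log2 ratio of class shares was −0.68 for endothelial-marker cells, −0.25 with the looser filter and 0.15 with class limits 2 UMIs higher, where it reversed. It was 0.50 for fibroblast-marker cells and 0.72 with the looser filter, and 0.60 for smooth muscle-marker cells, 1.23 with higher class limits and 1.08 after thinning.

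The log2 ratio changed sign for Stmn1 over all stromal cells without the deepest cells (−0.23), and for Stmn2 there without the deepest cells (−0.71), as the mean over cells (−0.23), after thinning (−0.19) and without neuron cells (−0.54). It did so in endothelial-marker cells with higher class limits for Cxcl2 (0.083), Hp (0.074), Ifi27l2a (0.45) and Uchl1 (−0.17), in fibroblast-marker cells for Saa3 without the deepest cells (0.32) and without mesothelial cells (0.48), and in smooth muscle-marker cells for Col3a1 with the looser filter (−0.71).

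No paired analysis was possible because each group has 1 gene expression library. With 702 AS cells, the floor of 3 UMIs stood at 12.5, 6.07 and 19.4 CPM in AS endothelial-marker, fibroblast-marker and smooth muscle-marker cells. A gene at 0 UMIs is therefore not shown to be absent. Mice, dissociation, cell capture and treatment cannot be told apart between the libraries.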
